A study of Mus musculus with 2 samples.

Results

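The proteasome genes were followed in 2 libraries of total RNA from the embryonic forebrain of B6NCrl mice, taken at day 12.5 of gestation. The genes were taken as the protein-coding genes of both deposited gene tables whose GENCODE M21 symbol begins with Psma, Psmb, Psmc, Psmd, Psme, Psmf or Psmg followed by a number. This gave 50 genes of the 21474 protein-coding genes and of the 43346 mouse genes in the tables. The naming rule uses no measured value, although it was chosen with earlier results of these data known. Both libraries belong to 1 group, so the design holds no comparison between conditions: replicate 1 was a pool of 120 embryos and replicate 2 a pool of 68, of mixed sex, healthy and with no transgene, deletion or treatment named in the labels. Per the labels, 10 ng of RNA entered each library and ERCC spike-ins were added. By its title the series has been superseded, and the newer version was not analysed here.

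The proteasome is the protease that degrades ubiquitin-tagged proteins in the cytosol and nucleus. Its core particle is a barrel of stacked rings, in which alpha subunits form the gates and beta subunits form the chamber, and only 3 of the constitutive beta subunits cut peptides. The cap, or regulatory particle, sits on the ends of the core: a base with a ring of ATPases unfolds the substrate, and a lid removes the ubiquitin chain. Immune cells and cells exposed to interferon exchange the catalytic beta subunits for those of the immunoproteasome, and dedicated chaperones build both particles. Neural progenitors and newborn neurons use the proteasome to turn over cell-cycle regulators and fate determinants.

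The tables held 33711030 expected counts in replicate 1 and 34578499 in replicate 2, that is, estimated numbers of reads assigned to features. Levels are given as TPM, a number of transcripts relative to a fixed total, which divides the reads by transcript length and so allows genes to be compared. All 5 forebrain markers were at 1 TPM or more in both replicates, among them Lhx2, a transcription factor of cortical progenitors, at 161 and 185 TPM. Markers of other cells were detected in both pools: 9 of 10 microglial and macrophage markers, all 7 endothelial markers and all 6 erythroid markers reached 1 TPM in both. Of all protein-coding genes, 60.0% were at 1 TPM or more in both. The 769 genes with equal counts above 0, of 24695 genes with a count, showed that the libraries were not copies of each other. Nothing in the labels names separate batches, and in bulk tissue fewer cells of a type and less RNA per cell cannot be told apart. The SD over 2 pools measures the spread between these pools and carries little information on the spread between embryos.

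The constitutive proteasome was abundant in this tissue. The 50 genes together held 10129 TPM in the first pool and 10117 TPM in the second, a mean of 10123 ± 9.07 TPM (SD, n = 2), which was 1.24 ± 0.00530% of all protein-coding TPM. Of the 50, 46 were at 1 TPM or more in both replicates, against 60.0% of all protein-coding genes. At 100 TPM or more in both stood 34 of the 50, against 7.50% of all protein-coding genes. The median of the 50 was 212 ± 3.34 TPM, against 4.54 ± 0.163 TPM over all protein-coding genes. The 31 constitutive subunits of core and cap made up 9101 ± 6.09 TPM of the sum, and each of them exceeded 100 TPM in both pools.

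**Figure D1:**
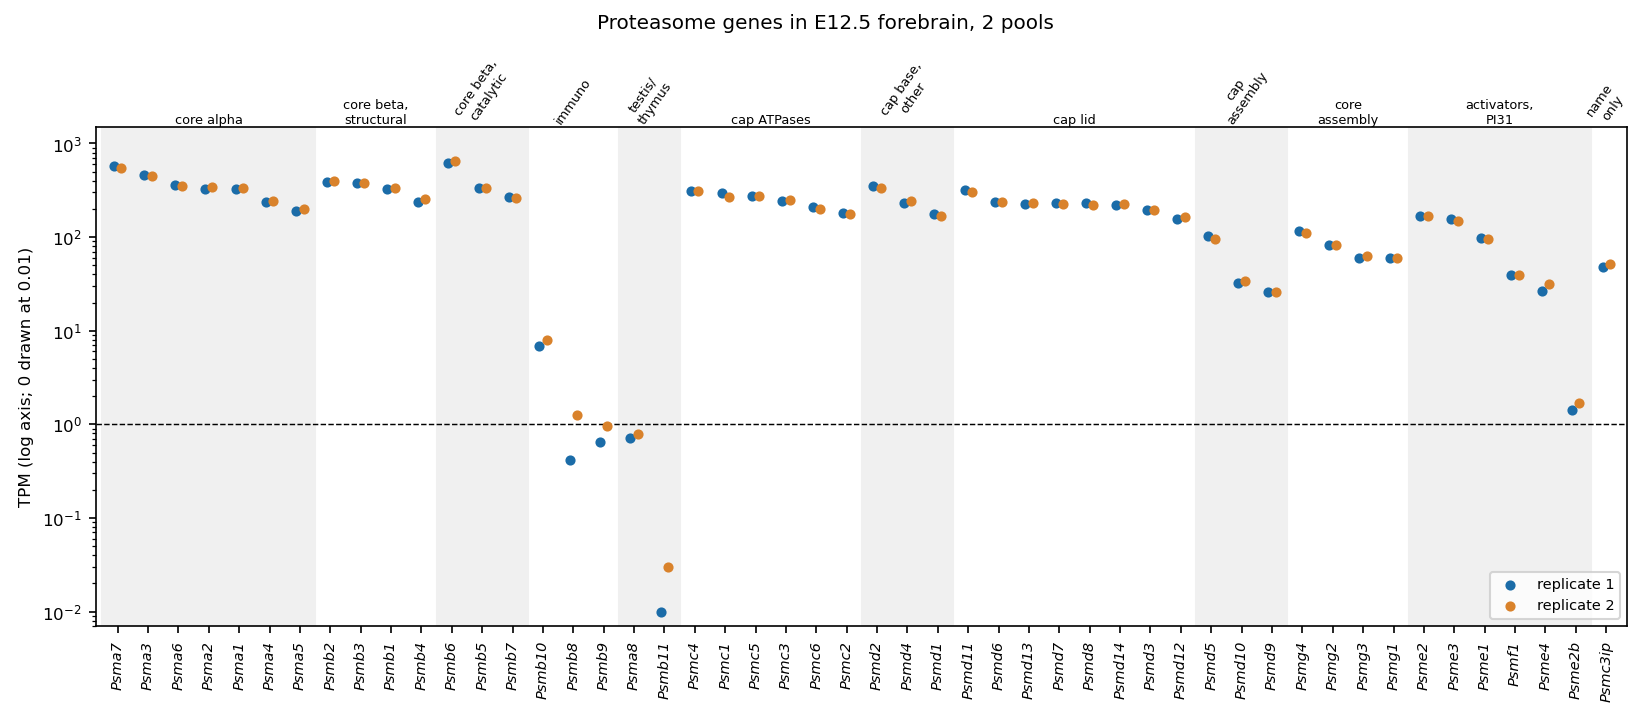
TPM of the 50 proteasome genes on a log axis, with blue points for replicate 1, orange points for replicate 2 and a dashed line at 1 TPM. Constitutive core and cap genes lie between 154.75 and 650.84 TPM in both pools, assembly factors and activators mostly lie below them, and immunoproteasome and tissue-specific core genes lie at 7.94 TPM or less.

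The 7 alpha subunits, which form the outer rings and the gate of the core, had a median of 334 ± 9.23 TPM (SD, n = 2). Psma7, the alpha 4 subunit, was the highest, at 572 and 553 TPM in replicates 1 and 2. Psma3, the alpha 7 subunit, followed at 455 and 446 TPM, and Psma6, the alpha 1 subunit, at 359 and 351 TPM. These 3 were separated from each other in both replicates. Psma2, the alpha 2 subunit, had 326 and 341 TPM, and Psma1, the alpha 6 subunit, had 328 and 336 TPM, so their ranges overlapped. Psma4, the alpha 3 subunit, had 236 and 242 TPM. Psma5, the alpha 5 subunit, was the lowest, at 188 and 199 TPM. The highest alpha subunit therefore stood 2.91-fold above the lowest by their means, although the particle holds all 7 in equal number.

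The 7 constitutive beta subunits had a median of 334 ± 2.29 TPM, close to that of the alpha subunits, and all 6 neighbours in their order were separated in both replicates. The 3 catalytic subunits did not share a level. Psmb6, the beta 1 subunit with caspase-like activity, was the highest of all 50 genes, at 623 and 651 TPM, and ranked 140 among protein-coding genes by mean TPM. Psmb5, the beta 5 subunit with chymotrypsin-like activity and the main target of proteasome inhibitor drugs, had 332 and 335 TPM. Psmb7, the beta 2 subunit with trypsin-like activity, had 265 and 262 TPM. Psmb6 was thus 2.42-fold above Psmb7 by the means, and the order beta 1, beta 5, beta 2 was the same in both pools. Among the non-catalytic beta subunits, Psmb2 had 388 and 396 TPM, Psmb3 had 376 and 377 TPM, Psmb1 had 327 and 331 TPM, and Psmb4 had 240 and 254 TPM. They spanned a narrower range, 1.59-fold, than the catalytic subunits.

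When less proteasome activity is available, cells process the membrane-bound transcription factor Nfe2l1, which then enters the nucleus and acts on proteasome genes through antioxidant response elements. The core of that element, TGACNNNGC, was searched on both strands in the window from 250 bases before to 50 bases after the start of each gene in the RefSeq promoters of build GRCm38.p6. A promoter entry near the start of the leading transcript was found for 41 of the 50 genes. The motif was present in 6 of the 41 (14.6%), against 13.3% of 14632 protein-coding promoters and 14.4% of those of genes at a mean of 1 TPM or more, so its share was near the background. The 6 were Psmb5, Psmb6, Psmc6, Psmd9, Psmd12 and Psme4. The promoters of 2 catalytic subunits with the motif, Psmb6 and Psmb5, are shown. They come from chr11:70525107-70525406 on the plus strand and chr14:54617946-54618245 on the minus strand. The motif began 9 bases before the RefSeq start in Psmb6 and 47 bases before it in Psmb5. In Psme4 and Psmd9 it began 7 and 31 bases before that start. In Psmc6 and Psmd12 it began farther off, 227 and 247 bases before the start. The RefSeq start lies 29 bases from the start of the leading transcript in Psmb6 and 27 bases from it in Psmb5. Capitals mark matches on either strand to the antioxidant response element core, the CCAAT box, the GC box (GGGCGG) or the interferon response motif described further on.
Psmb6: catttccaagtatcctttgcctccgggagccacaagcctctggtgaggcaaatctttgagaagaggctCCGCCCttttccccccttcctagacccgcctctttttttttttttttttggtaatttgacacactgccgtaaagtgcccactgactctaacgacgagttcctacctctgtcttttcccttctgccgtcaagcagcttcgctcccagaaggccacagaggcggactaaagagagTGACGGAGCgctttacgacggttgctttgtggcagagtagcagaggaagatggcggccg
Psmb5: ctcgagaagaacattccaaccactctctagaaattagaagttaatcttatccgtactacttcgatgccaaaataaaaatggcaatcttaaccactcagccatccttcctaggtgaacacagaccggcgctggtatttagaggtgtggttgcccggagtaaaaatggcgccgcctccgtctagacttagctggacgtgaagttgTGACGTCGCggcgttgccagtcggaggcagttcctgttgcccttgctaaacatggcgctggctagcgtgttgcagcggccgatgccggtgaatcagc
In Psmb5 the only match was the antioxidant response element core. In Psmb6 a GC box was also present, 182 bases before the start on the opposite strand. A match is a run of letters and no measurement of binding.

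The CCAAT box was present in 14 of the 41 promoters (34.1%), against 38.6% of all protein-coding promoters, and GGGCGG in 23 (56.1%), against 50.7%. Among genes at a mean of 1 TPM or more, 39.5% held CCAAT and 68.9% held GGGCGG. These shares are descriptions, and their differences were not tested. The gene for Nfe2l1 itself had 62.6 and 59.2 TPM, and that for its relative Nfe2l2 had 16.8 and 15.4 TPM. Ddi2, the protease that releases Nfe2l1, had 20.2 and 18.2 TPM. Of the 8 genes listed for this pathway, 7 were at 1 TPM or more in both pools, against 60.0% of all protein-coding genes. The exception was the small Maf gene Maff, at 0.80 and 0.87 TPM.

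The immunoproteasome subunits were low. Psmb10, the immuno form of beta 2 on chromosome 8, had 6.86 and 7.94 TPM, from 162 and 195 expected counts. Psmb8, the immuno form of beta 5, had 0.42 and 1.26 TPM from 10 and 25 expected counts. Psmb9, the immuno form of beta 1, had 0.64 and 0.95 TPM from 16.9 and 17.0 expected counts. Psmb10 alone of the 3 reached 1 TPM in both replicates, although by the deposited posterior mean TPM Psmb9 did as well, at 1.18 and 1.39. Psmb10 held 86.6% and 78.2% of the immunoproteasome TPM. The 3 genes were all listed higher in replicate 2, and the deposited intervals of the posterior mean TPM overlapped between replicates for each: for Psmb8 they ran from 0.236 to 0.890 TPM in replicate 1 and from 0.762 to 1.87 TPM in replicate 2.

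Set against their constitutive counterparts, the immuno subunits held 0.645% of the TPM of both catalytic sets in replicate 1 and 0.807% in replicate 2, a mean of 0.726 ± 0.115%. On the log2(TPM + 1) scale, which understates the gap of low genes, Psmb8 over Psmb5 stood at -7.87 and -7.22, Psmb9 over Psmb6 at -8.57 and -8.38, and Psmb10 over Psmb7 at -5.08 and -4.88. By the means of the TPM as deposited, Psmb8 was 397-fold below Psmb5, Psmb9 801-fold below Psmb6 and Psmb10 35.6-fold below Psmb7. The gap was smallest at the beta 2 position in both pools. The values for Psmb8 and Psmb9 rest on few counts. Psmb8 was 791-fold below Psmb5 in replicate 1 and 266-fold below it in replicate 2, and by the posterior mean TPM Psmb9 was 482-fold below Psmb6.

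**Figure D2:**
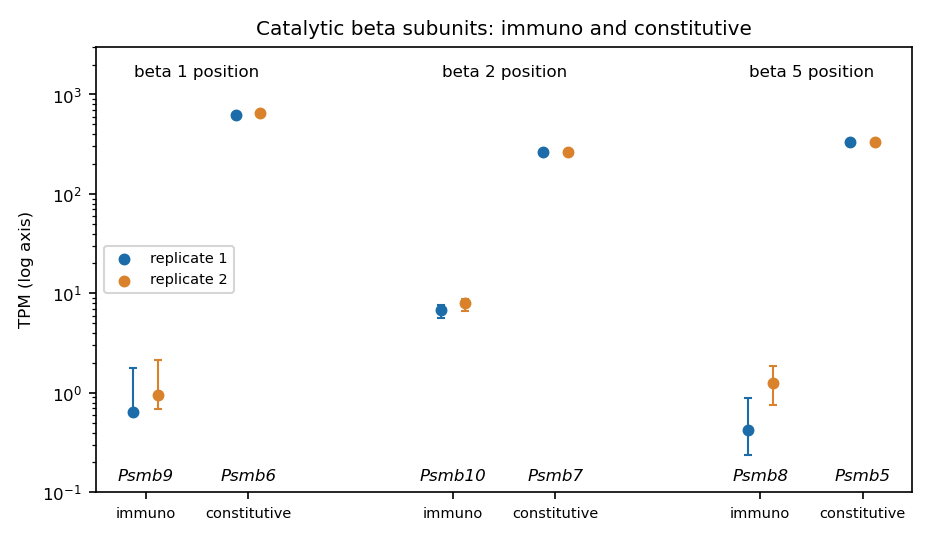
TPM on a log axis of each immuno subunit and, to its right, its constitutive counterpart, for the beta 1, beta 2 and beta 5 positions; points are TPM per replicate and bars are the deposited intervals of the posterior mean. Every immuno point lies at 7.94 TPM or less and every constitutive point at 261.52 TPM or more.

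The other genes of the antigen presentation pathway ranged widely in level. Psmb8 and Psmb9 lie within the major histocompatibility complex on chromosome 17, at 34197721 to 34201454 on the plus strand and at 34181987 to 34187764 on the minus strand, beside Tap1 and Tap2, which encode the peptide transporter. Tap1 had 1.09 and 1.86 TPM and Tap2 had 0.87 and 0.39 TPM. B2m, the light chain of class I molecules, was the highest, at 65.7 and 74.0 TPM. The class I heavy chain genes H2-D1 and H2-K1 had 32.3 and 30.9 TPM and 15.9 and 18.1 TPM. Tapbp, which loads peptides onto them, had 14.2 and 16.3 TPM. Of 8 genes listed for the class I pathway, 6 were at 1 TPM or more in both pools, against 60.0% of all protein-coding genes, and the list's median of 8.73 ± 0.552 TPM stood beside 4.54 ± 0.163 TPM over all protein-coding genes. The exceptions were Tap2 and Nlrc5, the class I transactivator, at 0.10 and 0.14 TPM. Of 9 interferon response genes, 5 were at 1 TPM or more in both pools. Ifit1, a gene induced by interferon, had 0.14 and 0.09 TPM.

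Markers of microglia and of erythroid cells are given beside the immunoproteasome values. The 10 microglial and macrophage markers summed to 65.7 TPM in the pool of replicate 1 and 73.5 TPM in that of replicate 2. None of the 10 was at 0, with Ptprc the lowest at 0.86 and 0.68 TPM, higher in replicate 1. The log2 ratio of replicate 2 over replicate 1 was beyond 0.32 for 0 of the 10, against 8.89% of protein-coding genes at a mean of 1 TPM or more. The 6 erythroid markers summed to 5994 and 8111 TPM, and none was at 0. Their log2 ratios ran from 0.27 to 0.50, and 5 of the 6 were beyond 0.32. Both sums were higher in replicate 2, as were the 3 immuno subunits, and their part in the immunoproteasome values was not tested.

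Psmb9 and Tap1 run in opposite directions from a shared start region: their outermost annotated starts lie 211 bases apart, and the genes overlap there. The RefSeq promoter of Psmb9, at chr17:34187281-34187580 on the minus strand, is shown because it holds the RefSeq start of Psmb9 and the annotated start of Tap1, with a GC box and a reversed CCAAT box in capitals.
Psmb9: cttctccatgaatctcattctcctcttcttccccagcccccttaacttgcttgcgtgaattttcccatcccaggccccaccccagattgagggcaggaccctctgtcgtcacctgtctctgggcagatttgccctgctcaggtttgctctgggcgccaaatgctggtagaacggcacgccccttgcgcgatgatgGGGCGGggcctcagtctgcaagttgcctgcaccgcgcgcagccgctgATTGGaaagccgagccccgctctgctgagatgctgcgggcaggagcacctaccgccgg
The interferon response motif GAAANNGAA was absent from this window and from the windows of Psmb8 and Psmb10. It was present on either strand in 6 of the 41 promoters (14.6%), namely Psmb3, Psmb4, Psmd4, Psmd9, Psme1 and Psmg4, against 8.25% of all protein-coding promoters and 6.47% of those of genes at a mean of 1 TPM or more. The RefSeq starts lie 474 bases from the start of the leading transcript for Psmb8 and 434 bases from it for Psmb9, where up to 500 bases were allowed, so these windows do not centre on the transcript that was quantified. The absence says only that these letters are not in the windows searched.

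The subunits that replace core subunits in other organs were also low. Psma8, the alpha 4 version of the testis, had 0.72 and 0.78 TPM from 23 and 26 expected counts. It was 750-fold below Psma7 by the means. Psmb11, the beta 5 version of the thymus, was listed at 0 TPM in replicate 1, where a count of 0 allows up to 0.0359 TPM at 3 counts, and had 0.03 TPM from 3 counts in replicate 2. Psmb11 lies 3411 bases from Psmb5 on chromosome 14, at 54621433 to 54629556 on the plus strand, while Psmb5 lies at 54614119 to 54618022 on the minus strand. These close neighbours thus stood far apart in level, with Psmb11 the lowest of all 50 genes.

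The 17 cap subunits formed a lower and tighter group than the core, with a median of 232 ± 1.53 TPM and a 2.15-fold range from highest to lowest, beside a median of 334 ± 5.97 TPM and a 3.29-fold range for the 14 core subunits. The 6 ATPases of the base had a median of 259 ± 0.976 TPM. Psmc4 had 312 and 310 TPM, Psmc1 had 297 and 271 TPM, and Psmc5 had 275 and 276 TPM. Psmc1 and Psmc5 were not separated, because the order turned between the pools. Psmc3 had 243 and 249 TPM, Psmc6 had 209 and 200 TPM, and Psmc2 was the lowest at 182 and 176 TPM. The ring holds 1 copy of each, and the highest ATPase was 1.74-fold above the lowest.

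The other base subunits bracketed the ATPases. Psmd2, a large scaffold that receives ubiquitin-like domains of shuttle factors, was the highest cap gene, at 348 and 333 TPM. Psmd4, a ubiquitin receptor, had 233 and 243 TPM. Psmd1, the second large scaffold, had 176 and 167 TPM. The scaffolds thus differed 1.99-fold by their means. Psmd2 also had the most counts of the 50 genes, 19692 and 19602, and in the cap only Psmd1 had longer transcripts. Adrm1, the other ubiquitin receptor of the base, which has no Psm name in the mouse, had 185 and 176 TPM.

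The 8 lid genes had a median of 226 ± 1.72 TPM and a 1.98-fold range. Psmd11 had 319 and 307 TPM and Psmd12 had 155 and 162 TPM, and the remaining 6 lay between them. Psmd13, Psmd7, Psmd8 and Psmd14 had means of 228, 227, 226 and 223 TPM, and these 4 neighbours were not separated by their replicates. Psmd14 encodes the deubiquitinase that cuts the chain from the substrate, and Psmd7 its partner. Psmd6 had 236 and 237 TPM and Psmd3 had 197 and 193 TPM. Sem1, the small lid subunit, had 208 and 204 TPM.

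Over the 31 constitutive subunits, 17 of the 30 pairs of neighbours in the order of levels were separated in both replicates and 13 were not. Within the core 9 of 13 were separated, and within the cap 9 of 16. Core genes have shorter transcripts than cap genes, with median lengths of 990 and 1400 bases, against 2556 bases for all protein-coding genes at a mean of 1 TPM or more. Spearman's rho between TPM and transcript length over the 31 subunits was -0.70 in replicate 1 and -0.74 in replicate 2. It was -0.53 and -0.47 within the 14 core genes and -0.46 and -0.50 within the 17 cap genes. Over 13092 protein-coding genes it was -0.22 and -0.23. These are descriptions across genes of the same libraries, and what part of the difference between core and cap goes with length was not tested.

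The spread of subunit levels was set beside that of other cytosolic complexes. The 8 subunits of the CCT chaperonin, which folds actin and tubulin, had a median of 429 ± 5.36 TPM and a 2.52-fold range. The 9 genes of the COP9 signalosome, whose subunits resemble the lid, had a median of 164 ± 0.453 TPM and a 4.46-fold range. The 13 genes of the translation factor eIF3 had a median of 170 ± 3.43 TPM and a 23.3-fold range, set by Eif3j1 at 10.9 and 12.1 TPM. Within each replicate the coefficient of variation over subunits was 22.3% and 21.2% for the cap, 34.3% and 33.7% for the core, 26.3% and 26.9% for CCT, 42.1% and 44.3% for COP9 and 46.2% and 47.3% for eIF3. By gene TPM and with the sets as listed, the cap thus had the lowest coefficient of the 5 in both pools, and the core lay between CCT and COP9. The sets were not built alike. COP9 counted Cops7a and Cops7b separately, at means of 87.7 and 51.2 TPM, and eIF3 included Eif3j1, while the core left out its immuno, testis and thymus forms. How far the order of the coefficients depends on these choices was not tested. On protein-coding transcripts alone the cap's range was 3.53-fold and the core's 4.63-fold, and the other complexes were not computed that way.

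**Figure D3:**
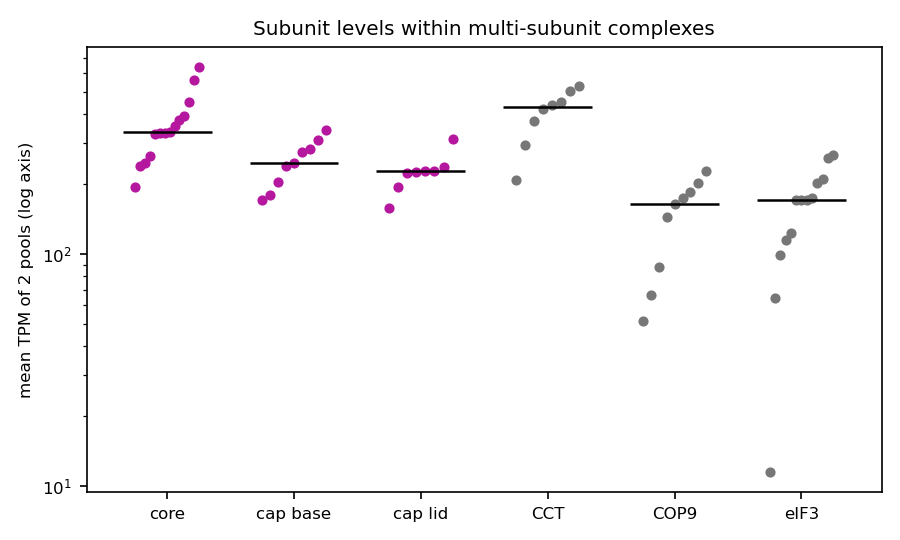
Mean TPM over the 2 pools of each subunit of the proteasome core, cap base and cap lid (magenta) and of CCT, COP9 and eIF3 (grey), on a log axis, with each complex's median as a black line. Core genes range from 193 to 637 TPM and lid genes from 158 to 313 TPM, and the lowest eIF3 point, at 11.5 TPM, is Eif3j1.

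Most assembly factors were lower than the subunits they place. The core chaperones Psmg1 and Psmg2, which act as a pair, had 60.5 and 59.5 TPM and 81.3 and 83.2 TPM. The other pair, Psmg3 and Psmg4, had 59.8 and 62.7 TPM and 116 and 111 TPM. Their median was 72.0 ± 1.45 TPM. In contrast, Pomp, the factor that guides beta subunits into the half-built core and is itself degraded by the finished one, had 346 and 342 TPM, within the range of the core subunits. The cap chaperone Psmd5 had 102 and 96.4 TPM, while Psmd10, also named gankyrin, had 32.4 and 33.9 TPM and Psmd9 had 26.2 and 25.7 TPM. Each binds ATPase subunits during base assembly.

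Alternative activators take the place of the cap on part of the cores. Psme1 and Psme2 encode the subunits of the interferon-inducible ring PA28 alpha-beta, and Psme3 forms the nuclear ring PA28 gamma on its own. Psme2 had 169 and 167 TPM, Psme3 had 155 and 150 TPM, and Psme1 had 98.0 and 96.3 TPM. Psme2 over Psme1 was 0.78 and 0.79 on the log2(TPM + 1) scale, 1.73-fold by the means, while the 2 genes had nearly equal counts, 1918 and 2114 for Psme2 and 1915 and 1937 for Psme1. On protein-coding transcripts alone Psme2 over Psme1 was 1.39-fold, and Psme2, at 116 TPM, stood below Psme3, at 147 TPM, the reverse of their order by gene. The PA28 alpha-beta genes were therefore far above the immuno catalytic subunits that interferon induces with them. Psme4, the large nuclear activator PA200, had 26.4 and 31.6 TPM, and Psmf1, the inhibitor PI31, had 39.4 and 39.2 TPM.

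Psme1 and Psme2 lie 5912 bases apart on chromosome 14, transcribed in opposite directions towards each other. The promoter of Psme1, at chr14:55578244-55578543 on the plus strand, is shown because among the 5 activator promoters found it was the only one with a match to GAAANNGAA. The match lies on the opposite strand and begins 10 bases after the RefSeq start, which is 134 bases from the start of the leading Psme1 transcript. The window holds a GC box as well.
Psme1: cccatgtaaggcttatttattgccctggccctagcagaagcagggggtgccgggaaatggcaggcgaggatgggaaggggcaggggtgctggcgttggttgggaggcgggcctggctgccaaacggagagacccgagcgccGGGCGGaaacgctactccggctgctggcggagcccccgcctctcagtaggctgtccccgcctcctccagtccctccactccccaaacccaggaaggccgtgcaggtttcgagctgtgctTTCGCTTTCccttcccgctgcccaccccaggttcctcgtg
Psme2b, a copy of Psme2 whose transcript is as long as the gene at 837 bases, had 1.44 and 1.67 TPM. Of the runs of 100 bases in its transcript, 52.0% also occur in Psme2, so reads of the abundant gene could be assigned to it, and its level is uncertain.

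Genes that work around the proteasome spanned a wider range. The ubiquitin gene Ubb had 3118 and 3032 TPM. Uba1, the main enzyme that activates ubiquitin, had 314 and 278 TPM. Vcp, the ATPase that extracts substrates from complexes, had 537 and 528 TPM, within the range of core subunits. The deubiquitinases that dock on the cap were lower, with 128 and 131 TPM for Usp14 and 75.5 and 77.4 TPM for Uchl5. All 7 proteasome-associated genes and all 10 shuttle and extraction genes listed were at 1 TPM or more in both pools. Over all protein-coding genes the share at that level was 60.0%. Psmc3ip, which matches the naming rule but encodes a recombination factor that binds Psmc3 and is no proteasome subunit, had 48.3 and 51.1 TPM.

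The proteasome genes differed little between the pools. None of the 46 at a mean of 1 TPM or more had a log2(TPM + 1) ratio of replicate 2 over replicate 1 beyond 0.32 in either direction, against 8.89% of 13092 protein-coding genes at that level. At a mean of 100 TPM or more, where most of the 50 lie, 1.91% of 1674 protein-coding genes passed. The log2 ratios of the 46 ran from -0.13 for Psmc1 to 0.25 for Psme4, with a median of 0.01, and 24 were higher in replicate 2 and 22 in replicate 1. Their median absolute log2 ratio was 0.04, beside 0.09 for all protein-coding genes at a mean of 1 TPM or more and 0.05 for those at 100 TPM or more. The small differences are read against those of genes at a like level, and whether the proteasome genes vary less than these was not tested. Psmb8, with a mean under 1 TPM, had a log2 ratio of 0.67 and lay beyond that limit.

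**Figure D4:**
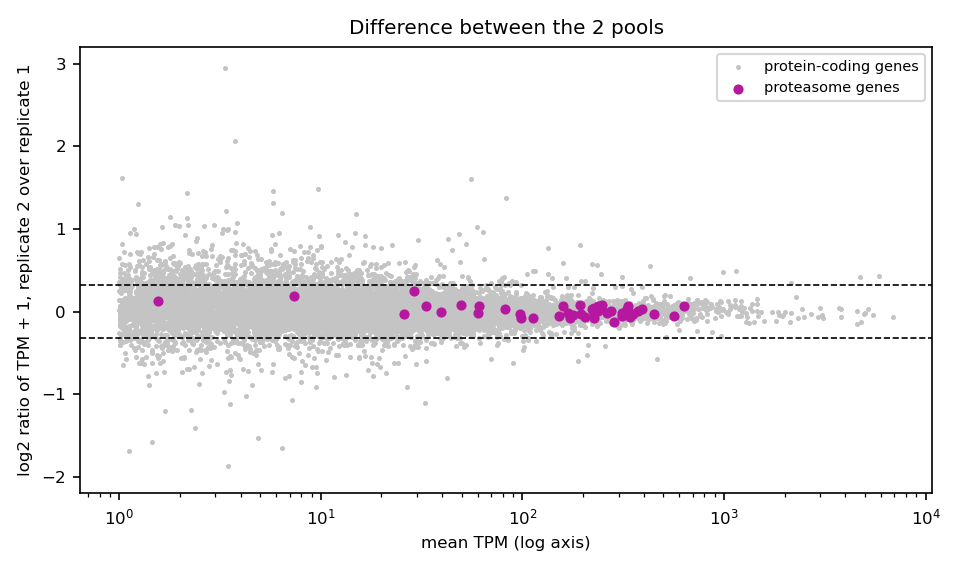
Log2 ratio of TPM + 1, replicate 2 over replicate 1, against mean TPM on a log axis, for 13092 protein-coding genes (grey) and 46 proteasome genes (magenta), with dashed lines at log2 ratios of 0.32 in both directions. All magenta points lie between the dashed lines, from -0.13 to 0.25.

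A gene's TPM sums over its annotated transcripts, and for a few proteasome genes much of it lay in transcripts not annotated as protein-coding. Of the 46 genes at a mean of 1 TPM or more, 26 had a leading transcript with 90% or more of the gene's TPM, and the leading transcript was the same in both replicates for all 46. It was annotated as protein-coding in 44, the exceptions being Psma3 and Psmc3ip. The median share of TPM in other classes was 2.79%. It reached 10% in 11 genes. These shares were not computed over all protein-coding genes, so the counts describe the 46 genes alone.

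Psma3 carried the largest such share among the subunits, at 64.2% and 67.9% of its TPM. Psma3-203, a transcript that keeps an intron, led with 29.5% and 32.8%, and Psma3-201, annotated for nonsense-mediated decay, held 23.6% and 26.8%. The transcript Psma3-204, which codes for protein, had 101 and 80.0 TPM. Psma3-203 spans intron 3 of the 10-exon Psma3-204, a short intron of 77 bases on chromosome 12 from 70984595 to 70984671 on the plus strand. Counting protein-coding transcripts alone, a measure added after the data were seen, left Psma3 with 163 and 143 TPM. That placed it at rank 7 instead of 2 among the alpha subunits and 13 instead of 3 in the core.

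Psmb4 and Psmd13 moved in the same way. Retained-intron transcripts held 47.9% and 52.0% of Psmb4, of which Psmb4-202 held 44.1% and 47.9%, and its protein-coding transcripts had 125 and 122 TPM, the lowest of the core. Psmd13 had 41.1% and 43.0% in other classes, with the decay transcript Psmd13-211 at 30.8% and 31.8%, and a further 16.8% in transcripts that M21 does not class. Its protein-coding transcripts had 95.7 and 91.7 TPM, rank 8 instead of 3 among the 8 lid genes. On protein-coding transcripts the range widened to 4.63-fold in the core and 3.53-fold in the cap. Psmb6 remained the highest core gene at 561 and 582 TPM, and Psmb5, with a single annotated transcript, kept its 332 and 335 TPM.

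**Figure D5:**
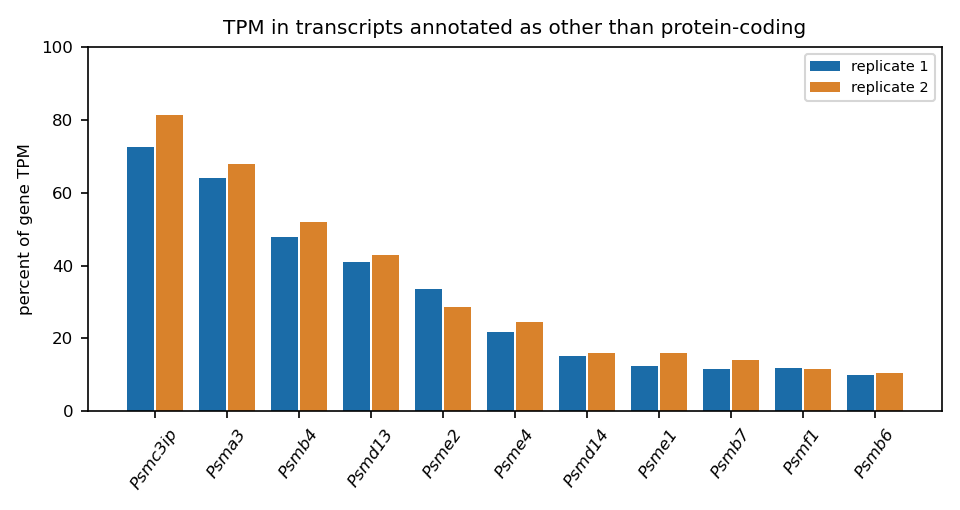
Percent of each gene's TPM in transcripts annotated as other than protein-coding, for the 11 genes in which the mean reached 10%, with blue bars for replicate 1 and orange bars for replicate 2. Psmc3ip (72.6% and 81.3%) and Psma3 (64.2% and 67.9%) stand highest, and Psmb6 is the last at 10.0% and 10.6%.

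Among the remaining genes, Psme2 had 33.7% and 28.5% in retained-intron transcripts, of which the 185-base Psme2-203 held 27.1% and 23.1% of the TPM from 79.3 and 69.9 counts. Division by so short a length raises its TPM. Psme4 had 21.8% and 24.7% in processed transcripts, and Psmd14 had a mean of 15.6 ± 0.604%. Psmc3ip had its leading transcript Psmc3ip-202 at 58.7% and 66.8%, which spans intron 1 of the coding transcript, 84 bases on chromosome 11 from 101095259 to 101095342 on the minus strand. The estimates split reads among overlapping transcripts, and whether the shares reflect unspliced RNA, stable transcripts or the split was not tested.

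Some of the 50 share sequence with copies, so that reads may be split between them. Of the 50, 14 shared at least 1 run of 100 bases with another annotated gene and 36 shared none. How often other protein-coding genes share such runs was not computed. In the 50, 10% or more of the runs were shared in Psme2b (52.0%), Psmb5 (24.9%), Psma5 (23.7%), Psme2 (18.4%) and Psma3 (13.4%). The copy of Psma3 was the processed pseudogene Gm13835, on chromosome 6 from 31141979 to 31142663 on the minus strand, which was listed at 99.3 and 126 TPM. Its level and that of Psma3 are therefore uncertain. The 2 copies that share runs with Psma5 summed to 1.63 and 2.22 TPM. Psmb5 shares runs with 2 genes, of which Gm3375 was not analysed here. Psmd11 shared 2.32% of its runs, with genes that summed to 59.6 and 64.8 TPM. The 4 pseudogenes with Psm names were at 0.36 TPM or less.

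Many proteasome genes start beside another gene that runs the opposite way. A protein-coding gene on the other strand started within 1000 bases of 12 of the 50 (24%), against 10.9% of all protein-coding genes and 15.7% of those at a mean of 1 TPM or more. The partners were mostly lower. Psmc2 starts 32 bases from Dnajc2, a ribosome-associated chaperone with 76.7 and 79.5 TPM, and Psma2 starts 75 bases from Mrpl32, a protein of the mitochondrial ribosome with 106 and 101 TPM. Psmb1 starts 137 bases from Tbp, the TATA-binding protein, with 57.2 and 57.0 TPM, and Psmd13 lies 341 bases from Sirt3, a mitochondrial deacetylase, with 15.7 and 14.7 TPM. Psma7 and Ss18l1, a subunit of the neuronal BAF chromatin complex, start 76 bases apart, at 24.2 and 20.6 TPM for Ss18l1. Except for Psmb9, at a mean of 0.795 TPM beside Tap1 at 1.48 TPM, each proteasome gene was above its partner in the mean.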

How the data were processed

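Total RNA from 2 pools of E12.5 forebrain was sequenced as 1 group. According to a text the authors deposited beside them, the tables derive from transcriptome alignments of a single replicate each, on mm10 with the GENCODE M4 annotation, by an aligner and quantifier not given in the sources used here. Expected counts as deposited are estimated reads per feature, not normalized. TPM were scaled by the authors to the total of all features, with spike-ins among them. FPKM, also deposited, are per length and library size. In the deposited transcript tables a percent gives the part of the gene's TPM that falls to a transcript. The interval bounds of the deposited posterior mean TPM were read as a signal in TPM, with a level not given in the sources used here.

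Symbols, classes and positions were joined from GENCODE M21 by gene identifier without version, and promoters from RefSeq (GRCm38.p6). The genes and lists were chosen with earlier results of these data known. Every gene matching the naming rule could be named, and other genes only from the listed pathways, complexes and markers, together with genes that overlap, neighbour or share sequence with a member. Paaf1 had no match and was not analysed here, and a few listed genes are not reported here. Genes were called detected at 1 TPM, ratios used a pseudocount of 1 TPM, and neighbours in the order of levels were called separated where both replicates of one exceeded both of the other. Means and SDs are over 2 replicates and no p-value was computed. Intervals and the limit of 3 counts cover counting error only, as PCR copies cannot be told from separate molecules without molecular identifiers. Alternatives were the posterior mean, FPKM, rescaling to mouse genes, other thresholds, pseudocounts and folds, the geometric mean and each replicate alone. The ratios between replicates and the fold limit were tested on simulated counts, and the other calculations were not. Python 3.11.15, numpy 2.4.6, pandas 2.3.3, scipy 1.17.1 and matplotlib 3.10.9 were used.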

Additional observations from a re-analysis of the deposited data

How the results depend on the processing

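Of 54 values of 15 results under 11 alternative settings, 26 stayed within the spread between replicates, or within 1.5 times for counts, 28 moved beyond it and 0 turned round. A turn could be called only for the ratios of immuno to constitutive subunits, all far below 0, so the 0 says nothing on stability. FPKM is proportional to TPM within a library, so the ranges within core and cap could hardly move under it. A further 26 values come from 1 replicate alone, which with 2 replicates always lies within their spread, so they say nothing on stability. The posterior mean gave a sum of 9882 TPM over the 50 genes, medians of 325 TPM for core beta subunits, 253 for ATPases, 221 for the lid and 70.2 for core chaperones, 47 genes detected, with Psmb9 among them, and -8.09 for Psmb9 over Psmb6, a 482-fold gap by the means that was added after seeing the data. Rescaling to mouse genes, which removes spike-ins and other features from the total, gave a sum of 11090 TPM and medians of 366 for alpha, 366 for beta, 284 for ATPases, 248 for the lid and 78.8 for core chaperones. A pseudocount of 0.1 TPM gave -8.63 for Psmb8 over Psmb5, -9.50 for Psmb9 over Psmb6 and -5.14 for Psmb10 over Psmb7, and FPKM gave -8.02 for Psmb9 over Psmb6. Geometric means were 352 TPM for beta, 245 for ATPases, 222 for the lid, 76.5 for core chaperones and 1.67 for the immunoproteasome. Without the filter on low values 1 gene, Psmb8, passed a log2 ratio of 0.32. Protein-coding transcripts alone, an alternative chosen after seeing the data, gave a sum of 9120 TPM, medians of 322 for alpha, 249 for ATPases and 206 for the lid, and ranges of 4.63-fold in the core and 3.53-fold in the cap. Apart from the alternatives' own construction, the causes were not tested. Thresholds of 0.5 and 5 TPM left 48 and 45 genes detected.

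Each replicate alone gave medians of 0.64 and 1.26 TPM for the immunoproteasome, Psmb8 over Psmb5 at -7.87 and -7.22, and 46 and 47 genes detected. No paired analysis was possible because the design holds 1 group. With 2 pools no spread between embryos can be given. Depth limits Psmb8, Psmb9, Psma8, Psmb11 and Psme2b, each at 26 counts or fewer in each library.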
